A study of Mus musculus with 9 samples.

Results

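The step from M1 to M2 is the later part of natural killer (NK) cell maturation in the mouse spleen, and it is described here from 2 sorted RNA-sequencing libraries, 1 labelled M1 and 1 labelled M2, out of 9 libraries in the series. Both hold wild-type NK cells of C57BL/6 spleen that were sorted and used directly, without culture. A library labelled Immature was prepared in the same way. The other libraries are NK cells of C57BL/6 spleen grown in IL-15, the cytokine that keeps NK cells alive and dividing, for 7 days, 3 from wild-type (WT) and 3 from Id2-null mice. The order of the samples in the labels was used to tell sorted from cultured libraries. The markers of the M1 and M2 gates, the age, sex and number of mice, and the way Id2 was removed are not stated in the labels. Because each stage is 1 library, no test between stages was possible. A stage and its library cannot be told apart, and the intervals given below cover counting error only.

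NK cells, a group of innate lymphocytes, use perforin and granzymes to kill virus-infected and tumour cells, and secrete interferon-gamma. As they mature in the spleen they lose CD27, gain CD11b (Itgam) and at last gain the inhibitory lectin receptor KLRG1. T-bet, Eomes, Zeb2 and Blimp-1 are transcription factors of this course, and TCF-1, the product of Tcf7, is a factor of the early stages. Id2 binds E proteins and keeps them off DNA.

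The files held 27179 genes, with total counts of 4462803 in M1, 4500825 in M2 and 4128414 in Immature, and between 4476563 and 4831831 in the cultures. Levels are total-scaled counts (CPM, the count scaled by the library total), and ratios carry a prior of 2 counts. Genes with a mean of at least 10 CPM over M1 and M2 numbered 8503, and 79 of them belong to marker lists of other blood cells and were kept apart. Of the remaining 8424 genes, 101 were at least 2-fold higher in M2 (1.20% of those compared) and 98 at least 2-fold lower (1.16%). For 56 of the higher and 33 of the lower genes the whole 95% interval lay past 2-fold. Their median log2 ratios were 1.41 and -1.23, beside -0.03 over all 8424 genes. With the 79 marker genes included, 253 genes (2.98%) differed at least 2-fold. The same share between replicate cultures was 0.588% to 3.16% for the 3 pairs of WT cultures and 0.246% to 7.27% for the 3 pairs of Id2-null cultures. The share between M1 and M2 was thus above 2 WT pairs and under the other, and under 2 of the Id2-null pairs, so that a 2-fold difference of a single gene is no larger than differences seen between replicate cultures. At 8-fold, M1 and M2 differed in 7 genes, and pairs of WT cultures in 1 to 17.

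**Figure D1:**
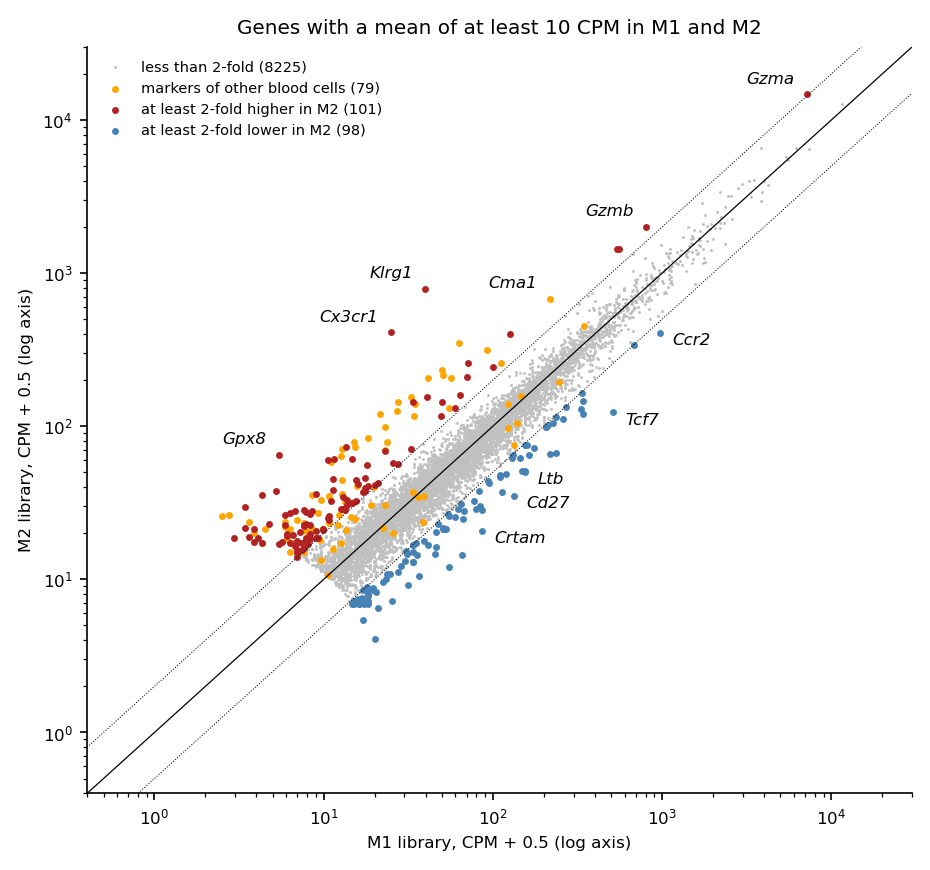
Level of each of the 8503 genes in the M1 library (horizontal) and the M2 library (vertical), in CPM plus 0.5 on log axes. Dotted lines mark 2-fold. Red points are the 101 genes at least 2-fold higher in M2, blue points the 98 lower, orange points the 79 marker genes of other blood cells. Klrg1, Cx3cr1 and Gpx8 stand farthest above the line among the labelled genes, and most orange points lie above it as well.

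The 3 late markers had the highest ratios of the 8424 genes. They were chosen with earlier results of these data known, so that this rank is no independent result. Klrg1, which encodes the inhibitory receptor KLRG1, was at 9.93 CPM in Immature, 39.4 in M1 and 793 in M2. It was 19.9-fold higher in M2 than in M1, with a log2 ratio of 4.31 and a 95% interval of 4.11 to 4.56. Cx3cr1, the receptor for fractalkine, was at 4.84, 24.4 and 410 CPM in the same order, a log2 ratio of M2 over M1 of 4.05 (interval 3.79 to 4.36). Gpx8, a peroxidase of the endoplasmic reticulum, was at 0.484, 4.93 and 64.7 CPM, a log2 ratio of 3.60 (interval 3.09 to 4.41). Each of the 3 was lowest in Immature, higher in M1 and highest in M2. Gpx8 had 2 counts in Immature and 22 in M1, so that its ratio between these 2 libraries is uncertain. In a bulk library, more cells with a transcript and more of it in each cell cannot be told apart.

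The early markers, chosen with the same knowledge, ran the other way. Tcf7 was at 999 CPM in Immature, 511 in M1 and 123 in M2, and was 4.14-fold lower in M2 than in M1 (log2 ratio -2.05, interval -2.19 to -1.92). Cd27, a costimulatory receptor of the tumour necrosis factor receptor family, was at 181, 133 and 34.7 CPM, a log2 ratio of -1.93 (interval -2.20 to -1.68). Hook1, a microtubule-binding adaptor, was at 31.0, 17.0 and 2.44 CPM. It did not pass the filter, because its mean over M1 and M2 was under 10 CPM. Its log2 ratio was -2.60 (interval -3.86 to -1.88). Each of the 3 was lower at each later stage of the sorted libraries. Cd27, Itgam and Klrg1 encode surface proteins that are often used to gate NK stages, and if a gate used 1 of them, that gene's difference was set by the sort.

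In the GRCm38.p6 build, RefSeq places Klrg1 at chr6:122270596-122282833, Cx3cr1 at chr9:120048683-120068296, Gpx8 at chr13:113042757-113046430, Tcf7 at chr11:52246527-52283383, Cd27 at chr6:125232620-125237136 and Hook1 at chr4:95967181-96025412. All 6 are protein-coding, and the counts are summed over each gene. Promoter windows of 250 bases before to 50 bases after an annotated start are shown for 4 genes, as examples for the motif search: Cx3cr1 and Cd27 as markers of each direction, and the granzyme gene Gzmm and the chemokine gene Xcl1 as genes lower in M2 whose window holds a T-box motif. Capitals mark the matches to the motifs searched, on either strand. The windows are chr9:120068247-120068546 (minus strand), chr6:125236978-125237277 (minus strand), chr10:79693576-79693875 (plus strand, 1 of 2 starts of Gzmm) and chr1:164935473-164935772 (minus strand), each written 5′ to 3′ on the gene's strand.
Cx3cr1: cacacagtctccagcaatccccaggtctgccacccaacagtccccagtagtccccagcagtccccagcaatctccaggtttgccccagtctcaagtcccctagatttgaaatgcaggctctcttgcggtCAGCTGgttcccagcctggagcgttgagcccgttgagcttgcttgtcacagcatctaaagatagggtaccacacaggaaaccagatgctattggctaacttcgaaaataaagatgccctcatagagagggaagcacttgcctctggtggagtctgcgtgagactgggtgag
Cd27: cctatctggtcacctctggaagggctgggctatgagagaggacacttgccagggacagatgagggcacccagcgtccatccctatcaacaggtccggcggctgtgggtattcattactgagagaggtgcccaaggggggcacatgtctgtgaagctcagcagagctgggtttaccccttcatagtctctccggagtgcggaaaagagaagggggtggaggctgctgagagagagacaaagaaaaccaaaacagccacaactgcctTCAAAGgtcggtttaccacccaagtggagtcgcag
Gzmm: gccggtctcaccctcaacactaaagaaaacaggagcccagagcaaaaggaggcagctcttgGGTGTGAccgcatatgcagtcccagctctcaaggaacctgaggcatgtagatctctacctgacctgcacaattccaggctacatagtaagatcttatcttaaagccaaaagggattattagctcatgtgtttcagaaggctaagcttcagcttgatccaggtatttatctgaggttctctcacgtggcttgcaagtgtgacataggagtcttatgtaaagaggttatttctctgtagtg
Xcl1: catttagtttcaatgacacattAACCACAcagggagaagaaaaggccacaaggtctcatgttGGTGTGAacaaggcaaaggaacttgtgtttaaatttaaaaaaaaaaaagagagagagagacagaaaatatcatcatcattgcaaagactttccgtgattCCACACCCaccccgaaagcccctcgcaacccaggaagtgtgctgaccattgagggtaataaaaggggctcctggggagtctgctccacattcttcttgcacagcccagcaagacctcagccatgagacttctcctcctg
The motifs were GGTGTGA (T-box factors), CAGGTG and CAGCTG (E-boxes), CTTTGA (TCF and LEF factors), TGTGGTT (RUNX factors) and GGGCGTGG or GGGTGTGG (KLF factors). The T-box motif and the latter KLF motif share the letters GGTGTG. Windows were found for 75 of the 101 higher genes, 80 of the 98 lower genes and 6678 of all 8424. A gene with more than 1 window was counted when any of them held the motif. The other window of Gzmm (chr10:79688770-79689069) held none of the motifs.

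The T-box motif was in the windows of 11.2% of the lower genes, 4.0% of the higher genes and 3.82% of all genes. The 9 lower genes with it were Xcl1, Cntrl, Cd160, Nr4a3, Oas3, Myb, Gzmm, Cmah and Sidt1. The RUNX motif was in 8.75% of lower, 10.7% of higher and 4.48% of all genes. CAGGTG was in 31.2%, 22.7% and 19.3%, and CAGCTG in 18.8%, 25.3% and 16.4%, in the same order. The TCF and LEF motif (11.2%, 13.3% and 13.9%) and the KLF motif (16.2%, 13.3% and 15.7%) were about as frequent in each set. These are shares of matching letters and do not show binding.

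**Figure D2:**
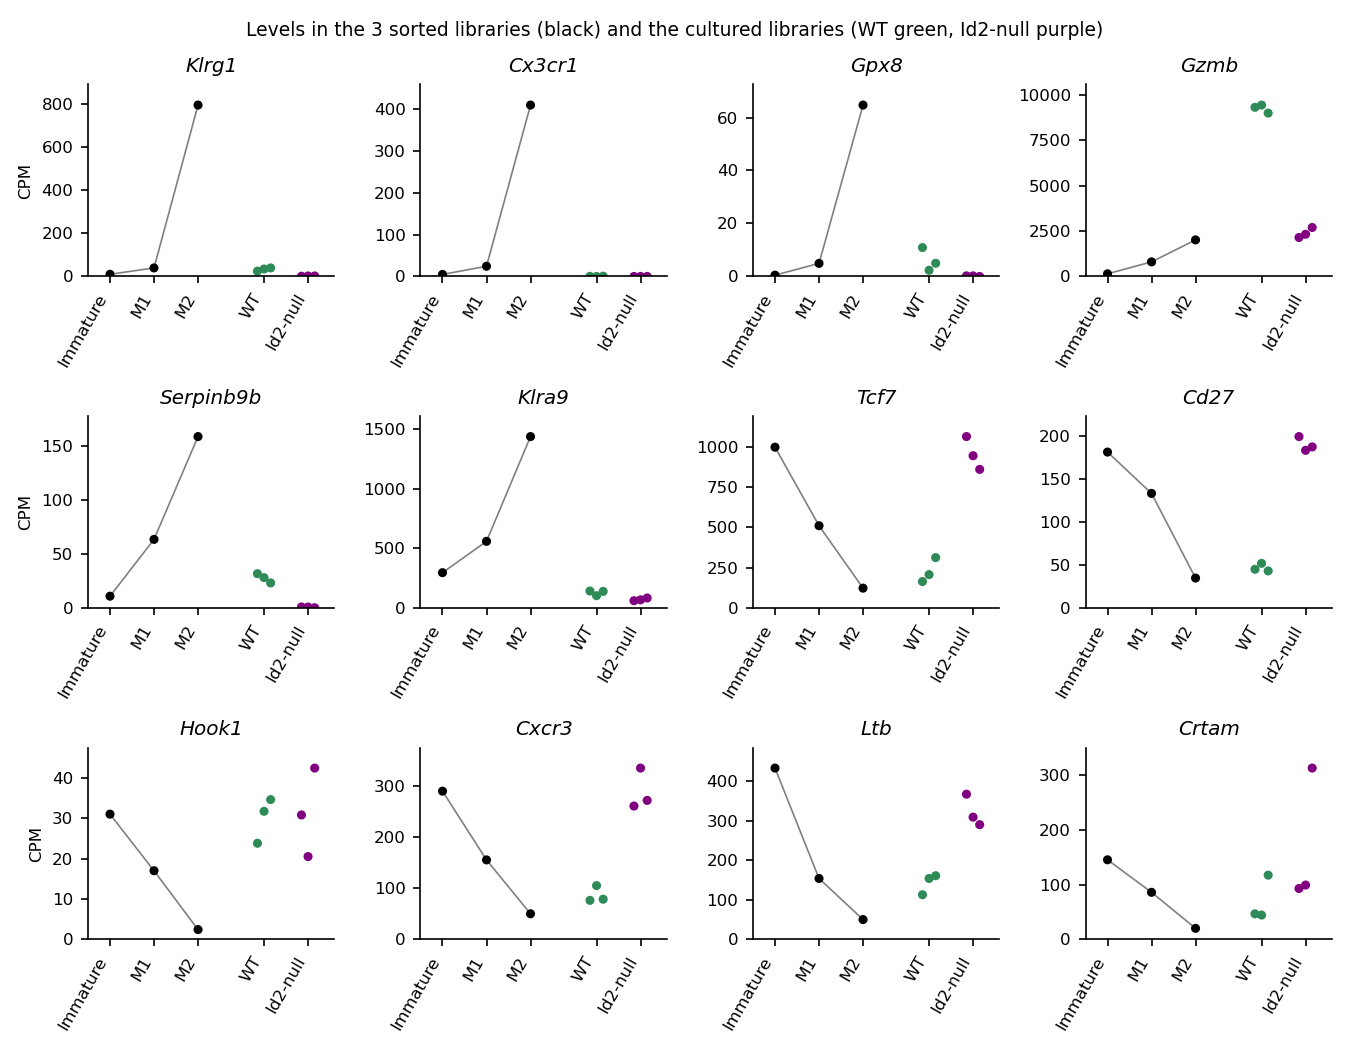
CPM of 12 genes in each library, on linear axes that start at 0. Black points joined by a line are the single Immature, M1 and M2 libraries, green points the 3 WT cultures and purple points the 3 Id2-null cultures. Klrg1, Cx3cr1 and Gpx8 are low until M2, Gzmb, Serpinb9b and Klra9 are higher at each later stage, and the other 6 genes are highest in Immature and lowest in M2 among the sorted libraries.

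Among the cytotoxic effectors and granule genes, 4 of 25 that passed the filter were at least 2-fold higher and 2 lower, with a median log2 ratio of 0.32. Gzmb, which encodes granzyme B, was at 145 CPM in Immature, 803 in M1 and 2016 in M2 (log2 ratio of M2 over M1 1.33, interval 1.27 to 1.38). Gzma, granzyme A, was at 1830, 7217 and 14725 CPM, a log2 ratio of 1.03 (interval 1.01 to 1.05). That value was under 2-fold (0.91) when ratios were centred on genes of like length. Serpinb9b, of the family of serpins that inhibit granzyme B, was at 10.9, 63.6 and 159 CPM (log2 ratio 1.31). Prf1, perforin, was at 547, 1722 and 2855 CPM, 1.66-fold higher in M2. Granzyme M (Gzmm) went the other way, at 56.7, 33.4 and 12.4 CPM (log2 ratio -1.39). Lyst, which governs the size of lysosomes and granules, was also lower, at 195, 119 and 48.2 CPM (log2 ratio -1.30). The last of the 4 higher genes, the cathepsin gene Ctsh, was at 4.84, 3.14 and 18.4 CPM and had no counts in any WT culture. Some granzyme genes have near-identical copies, and reads of those genes may have been split among the copies. Whether this touched the values of Gzma, Gzmb and Gzmm was not tested.

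Receptors differed in both directions, with few members past 2-fold. Of 8 Ly49 genes that passed, Klra9 alone was at least 2-fold higher, at 296, 559 and 1438 CPM in Immature, M1 and M2 (log2 ratio 1.36). Klra4 (-0.35), Klra7 (-0.22) and Klra8 (0.03) differed little between M1 and M2. Ly49 genes are close copies of each other, and their single values are uncertain. Of 33 other NK receptor genes, Klrg1 was higher and 3 were lower, and the median log2 ratio was -0.04. Crtam, an adhesion receptor of activated lymphocytes, was at 145, 85.8 and 20.2 CPM (log2 ratio -2.06). Tigit, an inhibitory receptor for the nectin family, was at 43.8, 51.1 and 20.7 CPM (-1.29). Cd160, a receptor for HVEM and class I molecules, was at 340, 174 and 71.8 CPM (-1.28). Klrb1b, which encodes an inhibitory lectin receptor, lay just under the threshold, at 365 CPM in M1 and 711 in M2 (0.96).

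The surface genes used to follow maturation included 3 of 20 that were at least 2-fold higher and 2 that were lower. Ly6c2, a GPI-linked surface protein, was at 430 CPM in Immature, 543 in M1 and 1443 in M2 (log2 ratio 1.41), and its near copy Ly6c1 at 7.75, 13.2 and 32.7 CPM (1.28). Cd24a was at 6.78, 5.60 and 19.3 CPM (1.71) and had no counts in any culture. The part of RNA of other blood cells in its value was not tested. Kit, the receptor for stem cell factor, was at 302, 148 and 50.9 CPM (-1.54). Cd160, given above, was the other lower member. Itgam was at 51.4, 983 and 1524 CPM, so that the M2 level was 1.55-fold the M1 level. Il7r, the IL-7 receptor chain, was lower by less than 2-fold (-0.45). Of 14 integrin genes, Itga1 alone reached 2-fold (8.74 and 18.0 CPM in M1 and M2, log2 ratio 1.01), and it lost that rank with a prior of 10 counts (0.88).

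Chemokine and homing receptors gave 3 higher and 2 lower genes of 16, with a median of 0.06. Besides Cx3cr1 these were Cxcr2, at 4.60, 5.15 and 17.1 CPM (1.65), and Cxcr6, the receptor for CXCL16, at 30.5, 6.27 and 16.0 CPM (1.29). Cxcr6 was thus highest in Immature. Cxcr3, a receptor for interferon-induced chemokines, was at 289, 155 and 50.0 CPM (-1.63). Ccr2, a receptor that guides cells to inflamed tissue, was at 1014, 975 and 407 CPM (-1.26). S1pr5, the sphingosine phosphate receptor with which NK cells leave lymphoid organs, was at 144, 490 and 812 CPM, 1.65-fold higher in M2. Cxcr2 is also a receptor of neutrophils, and the summed level of the neutrophil marker list moved the same way, from 226 CPM in M1 to 744 in M2. The part of such RNA in the Cxcr2 value was not tested.

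Of 15 cytokine and chemokine genes, 2 were higher and 3 lower. Tumour necrosis factor (Tnf) was at 63.0, 36.1 and 10 CPM in Immature, M1 and M2 (-1.81). Ltb, which encodes lymphotoxin beta, was at 433, 154 and 50.2 CPM (-1.61). Xcl1, a chemokine that draws cross-presenting dendritic cells, was at 509, 333 and 130 CPM (-1.36). All 3 were lower at each later stage. Ccl9 was at 24.0, 40.1 and 154 CPM (1.93) and Ccl6 at 28.8, 48.6 and 117 CPM (1.26). These 2 chemokines are also made by myeloid cells. They reached at most 1.93 and 0.215 CPM in the WT cultures. The summed monocyte and macrophage list was also higher in M2 (2066 CPM) than in M1 (671 CPM). From Immature (788 CPM) to M1 that list was lower, and so was the dendritic cell list (372 and 236 CPM). The neutrophil list (159 and 226 CPM) and the basophil, mast cell and eosinophil list (153 and 478 CPM) were higher, as were both chemokines. The part of myeloid RNA in these 2 chemokine values was not tested. Ccl5 was at 3072, 3839 and 6548 CPM (0.77), and Ifng at 94.0, 171 and 116 CPM (-0.56).

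No gene among 22 NK transcription factors that passed the filter differed at least 2-fold, and their median was -0.09. Zeb2 was at 46.0, 170 and 259 CPM (0.61), Prdm1, which encodes Blimp-1, at 27.1, 83.6 and 128 CPM (0.61), and Irf8 at 168, 390 and 589 CPM (0.59). Tbx21, which encodes T-bet, was at 351, 551 and 717 CPM (0.38). Eomes was at 497, 644 and 357 CPM (-0.85), highest in M1. Id2 was at 754, 885 and 1111 CPM (0.33), while the E protein genes Tcf3 (-0.48), Tcf4 (-0.72) and Tcf12 (-0.43) were each lower in M2, short of 2-fold. Among 21 progenitor and quiescence factors, Tcf7, Klf4 and Myb were lower. Klf4 was at 26.9, 22.0 and 9.11 CPM (-1.23) and Myb at 23.7, 17.9 and 8.0 CPM (-1.12), the latter short of 2-fold with a prior of 10 counts (-0.98). Bach2 (-0.14), Lef1 (-0.02) and Foxo1 (-0.15) differed little.

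Genes of several signalling and housekeeping lists differed by less than 2-fold. There was no member past it among 21 signalling adaptors and kinases, 32 cytokine receptors, JAK and STAT genes, 13 BCL2 family genes, 17 genes of class I presentation, 19 of glycolysis and hypoxia, 28 of oxidative phosphorylation and 65 cytoplasmic ribosomal protein genes. Il2rb, the IL-15 receptor chain, was at 3857 CPM in M1 and 2947 in M2 (-0.39). Bcl2, which protects cells from apoptosis, was at 284 and 171 CPM (-0.73, interval -0.87 to -0.60). Among 21 inhibitors of cytokine signalling, Socs3 was lower, at 61.8 and 28.4 CPM (-1.11). The median over all 8424 genes was -0.03, itself a ratio below 1. For the counts of ratios below or above 1 that follow, the share over all genes is not given here. Among 26 MYC and ribosome biogenesis genes, Myc was lower, at 89.1 CPM in Immature, 66.8 in M1 and 27.3 in M2 (-1.28). All 26 had a ratio below 1, with a median of -0.33. Among 27 immediate early genes 24 had a ratio below 1, with a median of -0.41. Myc, Fosb (684 and 339 CPM, -1.01) and Nr4a3 (30.3 and 14.9 CPM, -1.0) were the 3 at 2-fold. Nr4a3 was short of it with TMM scaling (-0.99), and Fosb in the length-centred ratio (-0.98). Such genes also respond to the handling of cells, and handling was not measured. Among 29 cell cycle genes, Birc5 (7.39 and 17.3 CPM, 1.18) and Kif11 (9.41 and 20.9 CPM, 1.11) were higher in M2 than in M1. In Immature they were at 31.5 and 51.4 CPM, above their M2 levels. Over all 43 matched members, the list summed to 4127 CPM in Immature, 2997 in M1 and 3313 in M2. Of the 29, 23 had a ratio above 1, with a median of 0.30, and Mki67 had the lowest ratio, at 27.3 and 17.6 CPM (-0.63). Kif11 was short of 2-fold with a prior of 10 counts (0.99).

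**Figure D3:**
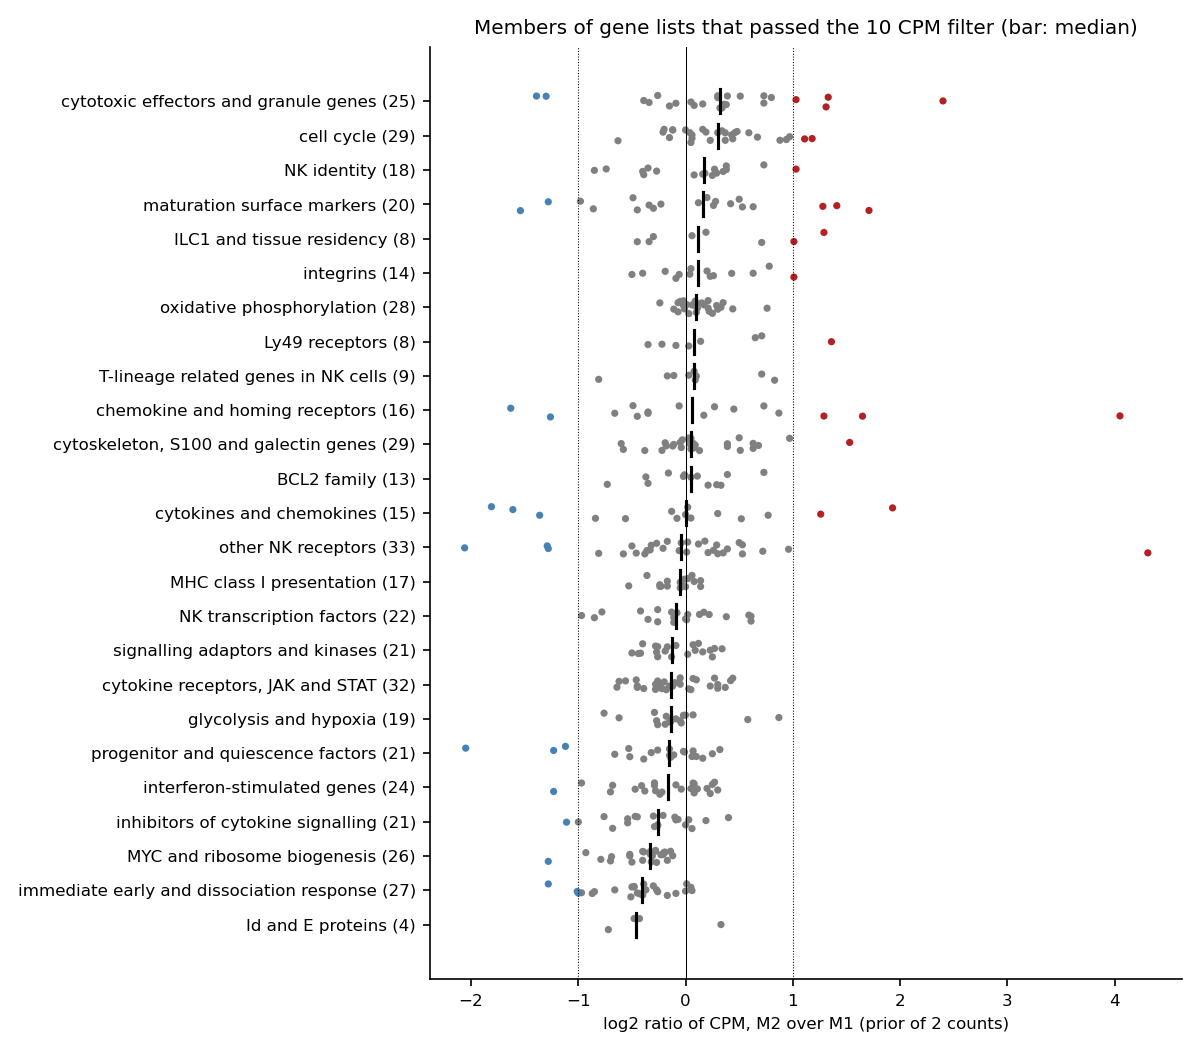
Log2 ratio of CPM of M2 over M1 for each member of 25 gene lists that passed the filter, with the number of members in brackets. Black bars are list medians, dotted lines 2-fold, red and blue points members past it. Medians run from -0.46 for Id and E proteins to 0.32 for cytotoxic effectors, and most points lie within 2-fold.

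The 15 genes with the highest ratio included, besides the 3 late markers, Cdc42ep1, an effector of the small GTPase CDC42, at 3.81 CPM in M1 and 34.9 in M2 (log2 ratio 3.05), and Adrb1, the beta-1 adrenergic receptor, at 2.46 and 18.0 CPM (2.66). The other 10 were the immunoglobulin segments Igkv1-110, Igkv5-39 and Igkv1-88, which belong to B-lineage cells, and Fcna, Slpi, Hpgd, Cfp, Ctsh, Kcnj10 and Clec12a. Fcna was at 13 and 72.9 CPM (2.45), Slpi at 10.1 and 59.8 CPM (2.52), and Clec12a, an inhibitory lectin of myeloid cells, at 3.36 and 17.1 CPM (2.20). None of these 10 stood on a marker list, and all but Cfp were under 1 CPM in every WT culture. Cx3cr1 and Cdc42ep1 were under 1 CPM there too. The part of RNA of other blood cells in the values of these genes was not tested. Over the whole set, 36 of the 101 higher genes (35.6%) were under 1 CPM in every WT culture, against 1 of the 98 lower genes and 0.617% of all 8424. Without such genes 65 of the higher genes were left.

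The 15 genes with the lowest ratio held Tcf7, Crtam, Cd27, Tnf and Cxcr3 and 10 more. Dock9, an exchange factor for CDC42, was at 22.3 CPM in Immature, 19.5 in M1 and 3.55 in M2 (-2.32). Kifc3, a kinesin, was at 68.8, 54.7 and 11.6 CPM (-2.20), and Aff3, a nuclear factor of the AF4 family, at 68.3, 65.0 and 14 CPM (-2.18). Kbtbd11 was at 508, 236 and 66.7 CPM (-1.82). Emb, the adhesion molecule embigin, was at 530, 217 and 65.8 CPM (-1.72). The remaining 5 were Slfn10-ps (-1.83), Slco3a1 (-1.79), Ccdc102a (-1.69), Acpp (-1.67) and Pkp4 (-1.63). For each of the named 15, M2 was the lowest of the 3 sorted libraries. Near the threshold, Itga1 (1.01) and Dnajc12 (1.01) were just counted as higher, and Tbc1d4 (0.99) and Trf (0.98) were not.

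Other genes with high levels outside the lists, chosen after their values were seen, were mostly detected in the WT cultures as well. Kcnj8, a potassium channel subunit, was at 42.6 CPM in Immature, 125 in M1 and 402 in M2 (1.68), and at 1.45 to 3.22 CPM in the WT cultures. Ly6a2 was at 11.1, 70.4 and 257 CPM (1.86), and Timp2, an inhibitor of metalloproteinases, at 38.8, 69.7 and 208 CPM (1.57). Entpd1, which encodes the ectonucleotidase CD39, was at 9.45, 99.5 and 245 CPM (1.29). Levels of these 4 genes were higher at each later stage. Among lower genes, Ctla2a, a cathepsin inhibitor, was at 505, 340 and 119 CPM (-1.51). Vars, a valyl-tRNA synthetase, was at 421, 260 and 111 CPM (-1.22). Hvcn1, a proton channel, was at 256, 145 and 61.5 CPM (-1.23). Tnfsf14, the cytokine LIGHT, was at 101, 110 and 46.2 CPM (-1.25) and Plxnc1, a semaphorin receptor, at 115, 85.8 and 27.8 CPM (-1.61).

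Marker genes of other blood cells were higher in M2 than in M1 in most lists. Of the 79 that passed, 54 were at least 2-fold higher and 0 at least 2-fold lower, beside 253 (2.98%) past 2-fold over all 8503 genes. Among 26 monocyte and macrophage genes 19 were higher, with a median log2 ratio of 2.04. Over Immature, M1 and M2 that list summed to 788, 671 and 2066 CPM, and to 110 to 130 in the WT cultures. Vcam1, an adhesion molecule of splenic macrophages, was at 56.7, 41.0 and 205 CPM, and Slc40a1, the iron exporter ferroportin, at 56.7, 49.3 and 232 CPM. Lyz2, lysozyme, was at 54.0, 55.8 and 205 CPM. None of these 3 genes had a count in the WT cultures.

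The other lists followed. Among 14 neutrophil genes 13 were higher, with a sum of 159, 226 and 744 CPM in Immature, M1 and M2. S100a8 was at 25.4, 26.9 and 144 CPM, and S100a9 at 38.0, 50.0 and 216 CPM. All 5 plasma cell genes were higher (35.4, 69.0 and 330 CPM in sum), as were 5 of 8 B cell genes (764, 627 and 1104 CPM) and 4 of 7 dendritic cell genes (372, 236 and 710 CPM). Igkc, the kappa light chain, was at 51.4, 62.7 and 349 CPM. The B cell list summed to 226 to 248 CPM in the WT cultures. Its member Ighm was at 474, 343 and 453 CPM in Immature, M1 and M2, and at 126, 170 and 126 CPM in the WT cultures. The class II gene H2-Aa was at 46.7, 26.7 and 125 CPM. No T cell gene of 5 was past 2-fold, and T cell genes summed to 444 CPM in M1 and 426 in M2. In the WT cultures that list summed to 670 to 818 CPM. The 1 erythroid gene that passed, Car2, was short of 2-fold, and was at 500, 522 and 675 CPM in the WT cultures. Below the filter, Hbb-b1 (2.02 and 8.22 CPM) and Hba-a1 (2.02 and 7.78 CPM) were higher in M2, and Hemgn (2.46 and 0.444 CPM) was lower. The B cell, T cell and erythroid lists thus hold genes found in cultured NK cells, and their sums do not measure B cell, T cell or erythroid RNA. No stromal or endothelial gene of 20 passed the filter. The share of these cells in either sort was not measured, and the part of their RNA in the genes counted as higher was not tested.

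Of 9 basophil and mast cell genes that passed, 7 were higher in M2, and their sum was 153 CPM in Immature, 478 in M1 and 1278 in M2. Of these genes Cma1, a mast cell chymase, took the largest part of it, at 15.3, 216 and 681 CPM (log2 ratio of M2 over M1 1.66). In the WT cultures it was at 6.66, 13.5 and 1.45 CPM, and it had no counts in the Id2-null cultures. Prss34 (62.5, 111 and 260 CPM) and Mcpt8 (24.7, 54.9 and 131 CPM), proteases of basophils, were also higher at each stage. Cpa3, carboxypeptidase of mast cells, was at 13.6, 19.3 and 39.8 CPM and Fcer1a, the IgE receptor chain, at 6.06, 14.6 and 31.3 CPM.

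**Figure D4:**
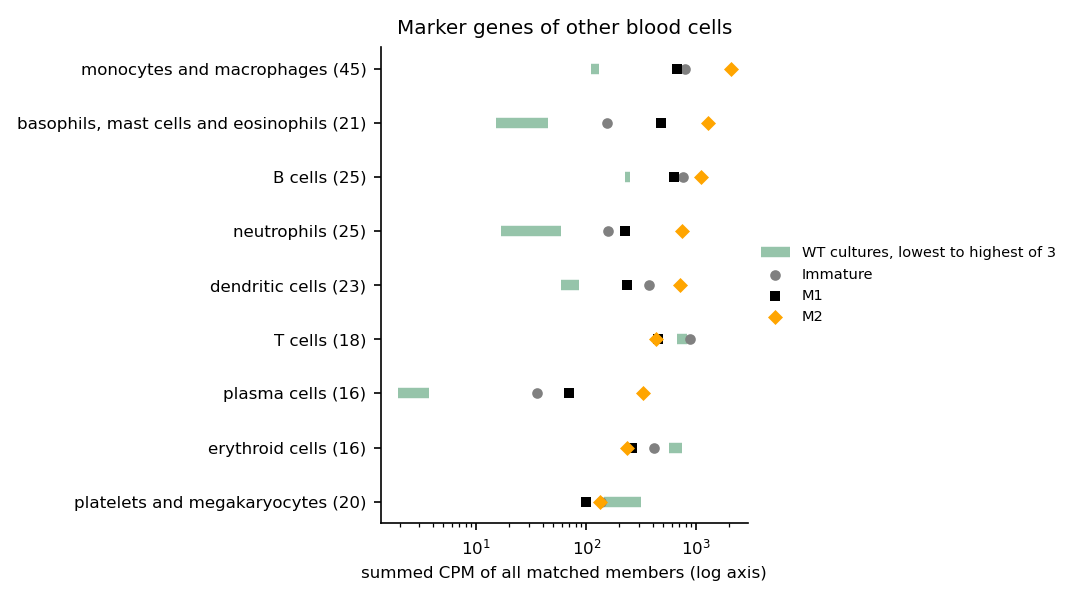
Summed CPM of all matched members of 9 marker lists of other blood cells, on a log axis, with the number of members in brackets. Grey circles are Immature, black squares M1, orange diamonds M2, and green bars the range of the 3 WT cultures. M2 is highest of the sorted libraries for 6 lists, from plasma cells to monocytes and macrophages, and not for T cells, erythroid cells and platelets.

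Gene length also moved with the ratio. The median log2 ratio was 0.12 in the shortest of 10 equal bins of gene length and -0.27 in the longest bin, which held 33 of the 98 lower genes and 6 of the 101 higher ones. The median length was 1978 bases for higher genes, 4509 for lower genes and 2885 for all. From Immature to M1, the medians ran from -0.19 to 0.16 over the same bins. With ratios centred on the median of each bin, 104 genes were higher and 70 lower. Klrg1 (4.24), Cx3cr1 (4.07), Gpx8 (3.48), Tcf7 (-2.05) and Cd27 (-2.00) kept their place, and Lyst came to -1.02. RNA quality was not measured in these files, and its part in the trend was not tested.

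The cultures give replicated values for the same genes in cells with and without Id2. Id2 was at 420, 407 and 403 CPM in the 3 WT cultures and at 12.5, 24.4 and 9.82 CPM in the 3 Id2-null cultures, and it fell in Id2-null cultures by 4.70 in log2 (SE 0.35, adjusted p = 0.00116, edgeR). Xist was at 0.691 ± 0.497 CPM in WT and 817 ± 117 CPM in Id2-null cultures (SD, n = 3), so that genotype and sex cannot be told apart. Of all 11022 genes tested, 167 (1.52%) were called lower and 210 (1.91%) higher in Id2-null cultures at an adjusted p under 0.05. Nothing in the labels says that the cultures came from separate mice, so these p-values measure the spread between cultures, which may be technical.

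Of the 101 genes higher in M2, 51 were expressed enough to be tested in the cultures. In Id2-null cultures 14 of them fell (27.5%) and 4 rose (7.84%), and the median log2 fold change was -0.62, beside 0.01 over all tested genes. With the replicate number as a block, 16 fell and 7 rose, where 3.47% and 4.10% of all genes were called lower and higher. Klrg1 was at 24.5, 34.5 and 39.5 CPM in WT and 0.894, 2.16 and 2.45 CPM in Id2-null cultures. It fell by 4.14 in log2 (SE 0.33, adjusted p = 0.000553, edgeR), and the groups did not overlap. Serpinb9b was at 31.8, 28.1 and 23.2 CPM in WT and under 1 CPM in each Id2-null culture, and fell by 5.33 (SE 0.37, adjusted p = 0.000270, edgeR). Gzmb was at 9325, 9449 and 9005 CPM in WT and 2148, 2326 and 2699 CPM in Id2-null cultures, and fell by 1.96 (SE 0.12, adjusted p = 0.000197, edgeR). Cxcr6 fell by 3.34 (SE 0.33, adjusted p = 0.00163, edgeR). Entpd1, Ltbp3, Jup and Itga1 fell as well.

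These 8 calls held when any 1 culture was left out. The calls of Gpx8, Aqp9, Susd3, Ncf1, S100a4 and Klra9 did not, being lost without 1 or more of Id2-null replicates 1 and 2 and WT replicates 1 to 3. Gpx8 was at 10.9, 2.33 and 4.97 CPM in WT and 0.223, 0.216 and 0 CPM in Id2-null cultures, and its adjusted p of 0.0192 (edgeR) reached 0.0928 without 1 culture. Cx3cr1 was under 1 CPM in all 6 cultures and was not tested. Gzma was at 5082, 3262 and 3193 CPM in WT and 513, 751 and 170 CPM in Id2-null cultures. Its fold change of -2.99 (SE 0.62) missed the threshold (adjusted p = 0.0830, edgeR) although the groups did not overlap. The call of Gzma depended on the method, with an adjusted p of 1.42e-05 in DESeq2, 0.0209 in limma voom and 0.126 in edgeR with the replicate block. The 4 genes that rose were Plxnb2, Ly6c2, Ly6a2 and Dstn, and Plxnb2 alone kept its call without each culture. Ly6c2 was at 60.8, 81.0 and 41.4 CPM in WT and 179, 178 and 160 CPM in Id2-null cultures.

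Of the 98 genes lower in M2, 96 were tested in the cultures. In Id2-null cultures 15 rose (15.6%) and 1, Slfn9, fell (1.04%), with a median log2 fold change of 0.23. With the replicate block 27 rose and 2 fell. Tcf7 was at 164, 207 and 313 CPM in WT and 1065, 946 and 861 CPM in Id2-null cultures, and rose by 2.08 (SE 0.23, adjusted p = 0.00272, edgeR). Cd27 was at 44.9, 51.8 and 43.0 CPM in WT and 199, 183 and 187 CPM in Id2-null cultures, and rose by 2.03 (SE 0.13, adjusted p = 0.000197, edgeR). The groups did not overlap for either gene. Gzmm rose by 2.93 (SE 0.27, adjusted p = 0.00114, edgeR) and Aff3 by 2.49 (SE 0.20, adjusted p = 0.000547, edgeR). Cxcr3, at 76.2, 105 and 78.4 CPM in WT and 260, 334 and 271 CPM in Id2-null cultures, rose by 1.74 (SE 0.18, adjusted p = 0.00163, edgeR). Ltb, Kbtbd11 and Pou6f1 also kept their calls when any 1 culture was left out.

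The other 7 that rose, Cmah, Gpr25, Hvcn1, Lyst, Tnf, Emb and Larp1, lost their calls without 1 or more of the same 5 cultures, and so did Slfn9. Hook1, low in M2, was at 23.8, 31.7 and 34.6 CPM in WT and 30.8, 20.5 and 42.4 CPM in Id2-null cultures, with overlapping groups and an adjusted p of 0.962 (edgeR). Crtam was at 46.6, 44.4 and 117 CPM in WT and 92.7, 99.0 and 312 CPM in Id2-null cultures. Replicate 3 was the highest in both genotypes, and its adjusted p of 0.483 came to 0.000589 with the replicate block (edgeR). Ccr2 (adjusted p = 0.934), Xcl1 (0.871) and Kit (0.857), all lower in M2, missed the threshold in edgeR. Genes higher in M2 made up 0.463% of all tested genes, 8.38% of those called lower in Id2-null cultures and 1.90% of those called higher. Genes lower in M2 made up 0.871% of all tested genes, 0.599% of those called lower and 7.14% of those called higher.

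**Figure D5:**
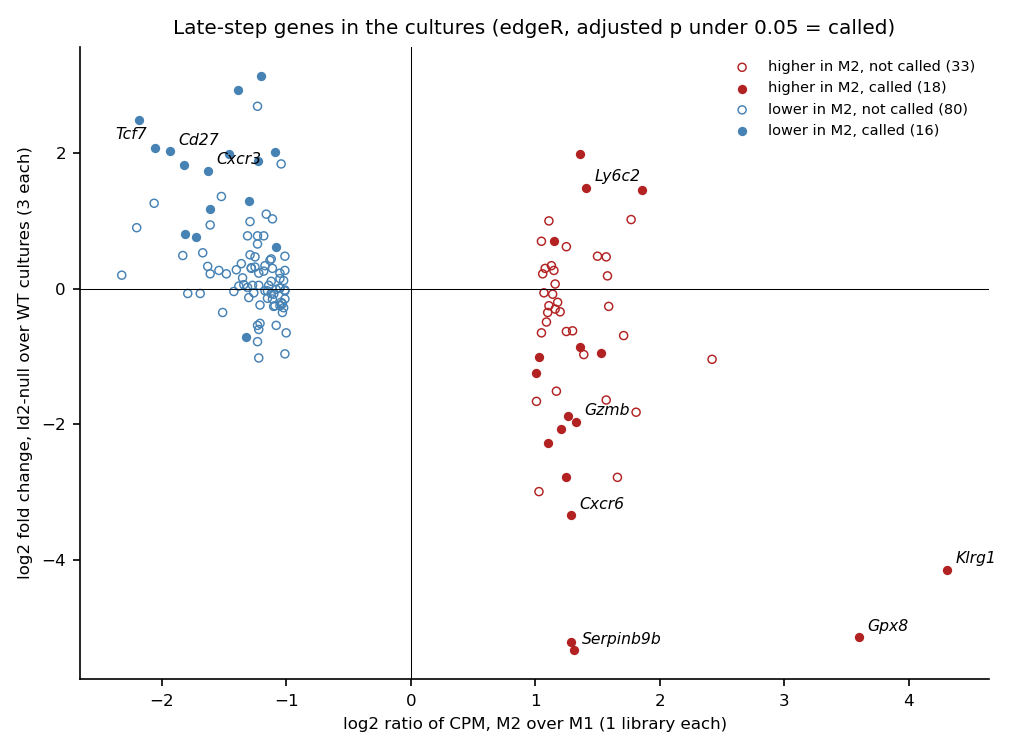
Log2 ratio of M2 over M1 (horizontal, 1 library each) against the log2 fold change of Id2-null over WT cultures (vertical, 3 each) for the 51 higher (red) and 96 lower (blue) genes that were tested in the cultures. Filled points are called by edgeR at an adjusted p under 0.05. Klrg1 and Gpx8 lie at the lower right, and Tcf7 and Cd27 at the upper left.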

How the data were processed

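Total RNA of NK cells was column-purified and reverse transcribed, per the labels' protocols. The deposited files hold raw counts per Entrez gene and each gene's length, per the file headers. Subread, featureCounts and limma and the build GRCm38 (mm10) are named in the submitters' processing notes, without versions or a strand setting. Symbols came from RefSeq (25275 genes, GRCm38.p6) or GENCODE (18), and 1886 genes had none. CPM, ratios (prior of 2 counts) and exact 95% Clopper-Pearson intervals of count ratios were computed in Python 3.11.15 with scipy 1.17.1. Intervals cover counting error only, since each stage is 1 library. The reads carry no molecular identifiers, and the intervals do not allow for duplicate reads. Total counts of 4128414 to 4831831 make 3 counts 0.621 to 0.727 CPM.

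Cultures were compared with edgeR 4.0.16 in R 4.3.3 (filterByExpr with a minimum count of 10, TMM, robust quasi-likelihood, Benjamini-Hochberg), with values in single cultures as CPM of total counts and means as TMM-scaled CPM. Code was tested on simulated data. Same-numbered cultures of the genotypes deviated together (r = 0.36, 0.25 and 0.42), and unlike-numbered ones had r from -0.40 to 0.19. The main fit used genotype alone, without pairs. The replicate number as a block was an alternative, given beside it. Genes were named by rule: the 6 markers, the 15 highest and the 15 lowest ratios, up to 4 members past 2-fold from each list (or the 2 most abundant), 17 fixed genes (not all reported here) and the 3 most abundant markers of each other blood cell in M1 and in M2. Genes named outside it, those of the cultures and the motif searches among them, were chosen after their values were seen. The genes and lists were chosen with earlier results of these data known. DESeq2 1.42.0, limma voom 3.58.1 and other scalings, priors and filters were alternatives.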

Additional observations from a re-analysis of the deposited data

How the results depend on the processing

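The count of genes at least 2-fold higher in M2 (101) and lower (98) followed the filter: it was 308 and 212 at a mean of at least 2 CPM, 29 and 55 at 30 CPM, and 454 and 465 without a filter. With intervals wholly past 2-fold it was 56 and 33, and 155 genes were higher with the marker genes of other blood cells counted. Without genes under 1 CPM in every WT culture, an alternative chosen after seeing the data, 65 were higher. Other priors and scalings, and length-centring or leaving out immunoglobulin segments (both chosen after seeing the data), gave 86 to 104 higher and 70 to 105 lower. Of 128 named genes, 10 crossed 2-fold under some setting. In the cultures, leaving out each culture in turn gave 9 to 17 fallen and 1 to 4 risen genes among those higher in M2, and 8 to 21 risen and 0 to 4 fallen among those lower in M2. The paired fit with a replicate block gave 7 risen of the higher genes, and 27 risen and 2 fallen of the lower genes. Without replicate 3 of both genotypes, added after seeing the data, 21 fell and 7 rose of the higher genes, and 30 rose and 5 fell of the lower genes. DESeq2 called 2 of the lower genes lower. The cause of these shifts was not tested. Depth limits genes near the filter, where intervals are wide (Itga1, 0.47 to 1.63).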

Other observations

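Among interferon-stimulated genes 1 of 24 was past 2-fold between M1 and M2, Oas3, at 28.2 CPM in M1 and 11.8 in M2 (log2 ratio -1.23), with Ifit1 at 22.6 and 11.3 CPM (-0.97). Of 29 cytoskeleton, S100 and galectin genes S100a4 was past 2-fold, at 49.3 and 143 CPM (1.53), with S100a6 at 266 and 523 CPM (0.97) and Lgals1, galectin-1, at 788 and 1261 CPM (0.68). Of 5 sex-linked genes none reached 2-fold between M1 and M2, and Xist, at 106 and 80.2 CPM, was present beside Y-linked Ddx3y, at 43.0 and 32.9 CPM, in both.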
